A study of Mus musculus with 8 samples.

Results

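The inflammasome and interleukin-1 (IL-1) family genes followed here were 10 mouse genes, taken as a list of names: the sensor Nlrp3, the adaptor Pycard, the caspase genes Casp1 and Casp4, the pore former Gsdmd, the cytokine genes Il1b, Il18, Il1a and Il33, and the receptor antagonist Il1rn. The list was matched to every probe set with exactly 1 gene symbol, which gave 14 probe sets, and for each gene the brightest probe set by mean over the 8 arrays stands for it. All 10 genes passed the filter on low signals (2 or more of the 8 arrays reaching the array median), among 13854 genes that did, and 12 of the 14 probe sets passed. The signals came from lung RNA of male ICR mice, an outbred strain, aged 5 to 6 weeks, from lobe 1 of the right lung. All animals were anesthetized with pentobarbital and had the trachea exposed through the neck skin for a single intratracheal instillation. The SWCNT groups received 0.5 mg of single-walled carbon nanotubes suspended in 50 µl of the surfactant Pluronic F-68 (PF68) at 0.1%, and the PF68 groups received this solvent. Lungs were taken on day 7 or day 1, which gave 4 groups (SWCNT day 7, PF68 day 7, SWCNT day 1, PF68 day 1) of 2 arrays each, and the study asked which transcripts respond to the nanotubes. No untreated lungs were analysed here. Arrays of a group are labelled biological replicates, with no animals named, and the p-values therefore reflect only how far these arrays spread, part of which may be technical.

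An inflammasome is a protein platform that assembles in the cytosol when a sensor such as NLRP3 detects damage, for example from particles that rupture lysosomes. The sensor recruits the adaptor ASC, encoded by Pycard, which gathers caspase-1, and caspase-1 cuts the precursors of IL-1 beta and IL-18 into active cytokines and cuts gasdermin D, whose fragment forms pores in the cell membrane. Much of this control acts on proteins, which arrays do not measure, and transcription of Nlrp3 and Il1b is the priming step that comes before it. IL-33 and IL-1 alpha act as alarm signals released from damaged cells, and in mouse lung alveolar type II epithelial cells are a known source of IL-33.

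The values are array signals read as log2, in which every array held the same sorted values, with a median of -0.63. A difference of 1 therefore stands for a doubling relative to the other transcripts on the array, and signals of different probe sets cannot be set against each other. Correlations over probe sets ran from 0.914 to 0.940 within groups and from 0.891 to 0.931 between groups. Of the markers that passed the filter, all 8 alveolar epithelial, all 5 airway epithelial and all 4 endothelial ones had group means at or above the array median in every group. Lamp3, another listed alveolar marker, was not among the genes that passed. The filter had itself asked for that median on 2 or more arrays, so these values do not test the lung labels. In whole lung tissue, fewer cells of a type and less RNA per cell cannot be told apart.

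For orientation, upstream sequence is shown for 4 members that stood for the 3 patterns described next: Casp1, which lay below PF68 on day 1 and above it on day 7, Casp4 and Il33, which lay above it on both days, and Il1b, which hardly differed. Casp1 and Casp4 are neighbouring genes on the same strand of chromosome 9 in the RefSeq table. Each run is the 250 bases before an annotated transcription start in RefSeq, build GRCm38.p6, written 5′ to 3′ on the strand of the gene, and capitals mark a match to an NF-kappaB-like motif (GGGA, 4 bases of any kind, then CC) or to the TATA box letters TATAAA. Il33 has 2 annotated starts in the table, and both are shown. Casp4 also has 2, with windows that overlap over most of their length, and only the first is shown.
Casp1, chr9:5298267-5298516, plus strand: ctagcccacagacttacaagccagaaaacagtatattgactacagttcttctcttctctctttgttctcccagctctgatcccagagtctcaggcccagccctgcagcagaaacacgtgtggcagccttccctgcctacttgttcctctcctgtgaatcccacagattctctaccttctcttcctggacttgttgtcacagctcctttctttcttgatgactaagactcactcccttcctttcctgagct
Casp4, chr9:5308599-5308848, plus strand: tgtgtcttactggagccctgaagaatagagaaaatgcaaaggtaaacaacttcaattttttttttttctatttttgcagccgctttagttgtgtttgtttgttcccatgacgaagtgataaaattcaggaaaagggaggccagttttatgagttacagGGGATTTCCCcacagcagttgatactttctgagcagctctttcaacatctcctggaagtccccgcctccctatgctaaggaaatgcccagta
Il1b, chr2:129371140-129371389, minus strand: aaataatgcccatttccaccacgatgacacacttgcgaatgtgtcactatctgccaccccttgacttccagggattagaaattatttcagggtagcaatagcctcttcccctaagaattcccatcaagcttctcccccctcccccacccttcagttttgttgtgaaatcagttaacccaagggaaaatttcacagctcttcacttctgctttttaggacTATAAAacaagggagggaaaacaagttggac
Il33 first start, chr19:29924863-29925112, plus strand: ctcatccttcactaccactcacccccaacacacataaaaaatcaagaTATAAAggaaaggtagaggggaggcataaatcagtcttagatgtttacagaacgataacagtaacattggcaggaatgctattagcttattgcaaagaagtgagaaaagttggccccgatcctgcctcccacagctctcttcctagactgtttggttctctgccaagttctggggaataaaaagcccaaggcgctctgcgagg
Il33 second start, chr19:29945540-29945789, plus strand: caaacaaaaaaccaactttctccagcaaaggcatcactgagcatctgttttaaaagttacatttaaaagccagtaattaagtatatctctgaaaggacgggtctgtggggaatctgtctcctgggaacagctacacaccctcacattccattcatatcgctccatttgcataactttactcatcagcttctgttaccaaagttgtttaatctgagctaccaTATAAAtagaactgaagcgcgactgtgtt
Both windows of Casp4 hold the same GGGATTTCCC, so that 1 site counts in 2 windows below. The window of Casp1 holds neither motif. Over both strands, the NF-kappaB-like letters were found in 4 of 14 windows of the members, of 3 genes (Casp4, Il1rn and Nlrp3), and in 17.6% of all 32851 windows of this length. The TATA box letters were found in 5 of 14 windows, of 4 genes (Il1a, Il1b, Il18 and Il33), and in 12.4% of all windows. The AP-1 letters TGANTCA were found in 2 windows, of Il1a and Il1rn, against 6.75% of all. An interferon response element (GAAA, 2 bases of any kind, then GAAA) was in 0 of the 14 windows and 2.98% of all, and a STAT-like motif written TTCNNNGAA in 0 of 14 and 7.02% of all. Of the members, 9 had windows in the table, and Gsdmd is only named. These matches describe letters in a window and are not measured binding sites.

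On day 7 all 10 members had a higher mean in SWCNT lungs than in PF68 lungs, by 0.01 (Nlrp3) to 0.95 (Casp1) on the log2 scale, although Nlrp3 changed sign under cyclic loess normalization (-0.033), and with 1 array left out Nlrp3 ran from -0.48 to 0.49 and Il1rn from -0.00079 to 0.84. Both SWCNT arrays lay above both PF68 arrays for 8 of 10 members, where this held for 28.2% of all genes. No member passed an adjusted p of 0.05 (limma, Benjamini-Hochberg over all genes), as 2.18% of all genes did, and 5 of 10 had an unadjusted p under 0.05, against 23.1% of all genes. The nearest was Casp4, at an adjusted p of 0.0531. The median difference of the members was 0.42, and that of all genes was 0.02.

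On day 1 the members split. SWCNT arrays lay above PF68 arrays without overlap for 3 of 10 members (Nlrp3, Casp4 and Il33), as for 24.6% of all genes, and below them for 5 of 10 (Pycard, Casp1, Gsdmd, Il18 and Il1rn), as for 28.6% of all genes. No member passed the adjusted threshold in limma, as 2.17% of all genes did, and 6 of 10 had an unadjusted p under 0.05, against 18.6% of all genes. The median difference was -0.11 for the members and -0.02 for all genes. Pycard, Casp1, Gsdmd and Il18 lay below PF68 on day 1 and above it on day 7 with no overlap on either day, which is 4 of 10 members and 8.33% of all genes. Casp4 and Il33 lay above PF68 without overlap on both days, which is 2 of 10 members and 7.23% of all genes.

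**Figure D1:**
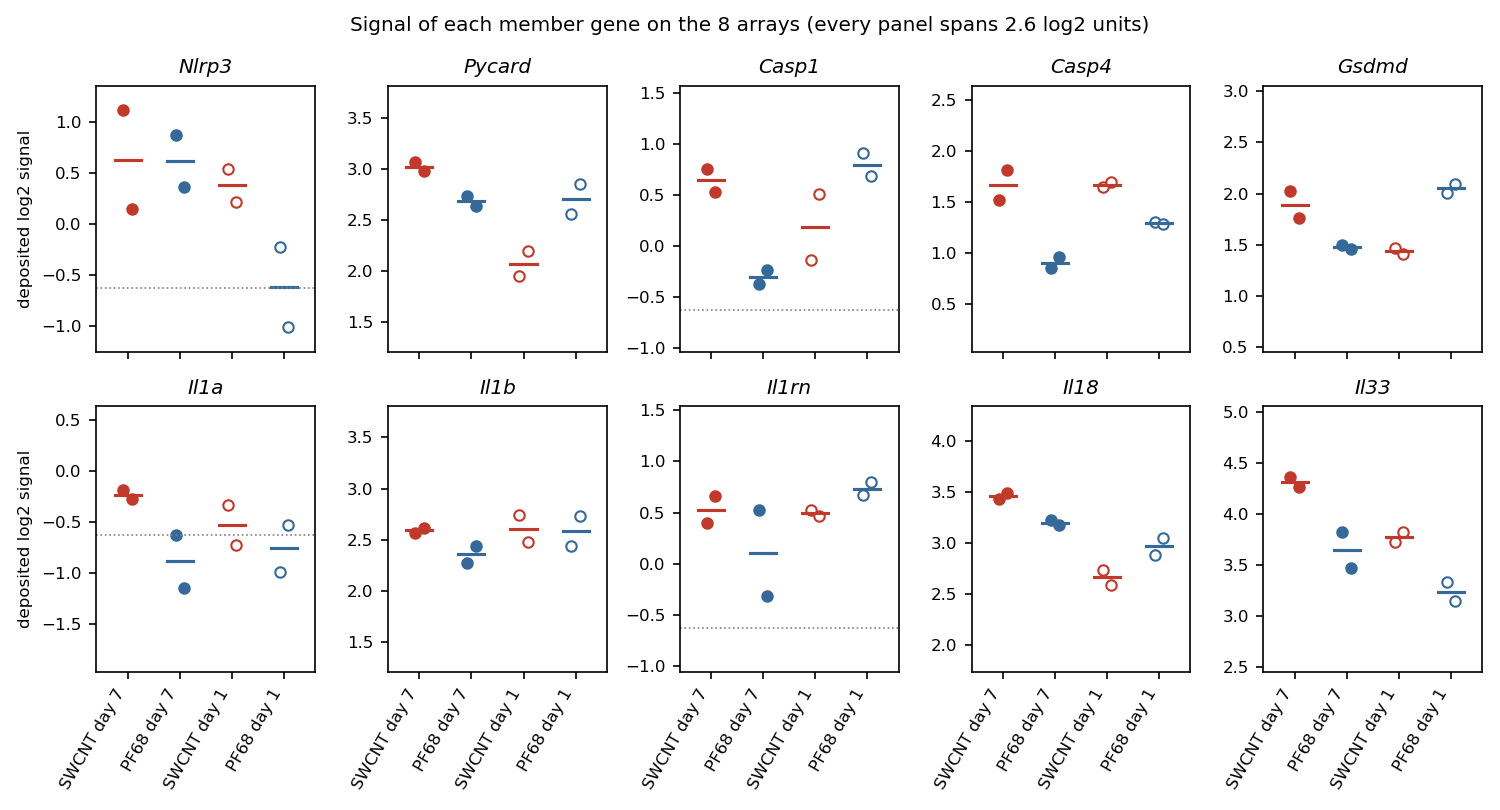
Deposited log2 signal (y axis) of each member gene on the 8 arrays, in panels of equal span; points are single arrays and bars are means of 2 arrays, with SWCNT and PF68 side by side on each day. Casp4 and Il33 sit higher in SWCNT lungs on both days, and Pycard, Casp1, Gsdmd and Il18 sit lower in SWCNT lungs on day 1 and higher on day 7.

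Nlrp3, the sensor, had log2 signals of 1.11 and 0.14 in SWCNT lungs and 0.88 and 0.36 in PF68 lungs on day 7. On day 1 its signals were 0.54 and 0.21 in SWCNT lungs and -0.22 and -1.01 in PF68 lungs. The arrays overlapped on day 7 and the PF68 lungs of day 1 were the lowest of the 4 groups. The difference between SWCNT and PF68 was 0.01 ± 0.42 on day 7 (SE, adjusted p = 0.993) and 0.99 ± 0.42 on day 1 (adjusted p = 0.287). The spread between arrays of a group was wide, with an SD of 0.69 in SWCNT lungs on day 7, so the day 7 interval ran from -1.02 to 1.04 and held changes of either sign. That interval, like the others given here, is a 95% interval for a single gene, with no adjustment for the number of genes.

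Pycard, which encodes the adaptor ASC, had signals of 3.07 and 2.98 in SWCNT lungs and 2.73 and 2.63 in PF68 lungs on day 7. On day 1 it had 1.95 and 2.20 in SWCNT lungs and 2.55 and 2.85 in PF68 lungs. The SWCNT lungs of day 1 were the lowest group and those of day 7 the highest, with both PF68 groups between them and overlapping each other. The difference was 0.34 ± 0.15 on day 7 (adjusted p = 0.257) and -0.63 ± 0.15 on day 1 (adjusted p = 0.117). Pycard had 2 further probe sets, both below the filter, and on day 7 their differences were -1.85 ± 0.45 (adjusted p = 0.247, in a fit of all probe sets without a filter) and 1.39 ± 0.63 (adjusted p = 0.429), of opposite signs. On day 1, in the same order and fit, they were 0.71 ± 0.45 (adjusted p = 0.672) and 0.13 ± 0.63 (adjusted p = 0.970). Both day 1 values were opposite in sign to the main probe set.

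Casp1, the protease that matures IL-1 beta and IL-18, had signals of 0.75 and 0.53 in SWCNT lungs and -0.38 and -0.23 in PF68 lungs on day 7. The day 1 signals were -0.14 and 0.50 in SWCNT lungs and 0.90 and 0.68 in PF68 lungs. The PF68 lungs of day 1 and the SWCNT lungs of day 7 overlapped at the top and the PF68 lungs of day 7 were lowest. The day 7 difference of 0.95 ± 0.24, a 1.93-fold higher signal in SWCNT lungs, was the largest among the members and had an adjusted p of 0.0939. On day 1 the difference was -0.61 ± 0.24 (adjusted p = 0.249). Leaving out 1 array at a time kept the day 7 difference between 0.83 and 1.06 and the day 1 difference between -0.93 and -0.29.

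Casp4, the mouse caspase that senses intracellular lipopolysaccharide and also cuts gasdermin D, had signals of 1.52 and 1.81 in SWCNT lungs and 0.86 and 0.96 in PF68 lungs on day 7. Its signals on day 1 were 1.64 and 1.69 in SWCNT lungs and 1.30 and 1.28 in PF68 lungs. The SWCNT arrays of both days lay above the PF68 arrays of both days, and the SWCNT groups of the 2 days overlapped. The difference was 0.76 ± 0.13 on day 7, a 1.69-fold higher signal (adjusted p = 0.0531), and 0.37 ± 0.13 on day 1 (adjusted p = 0.218). Its difference therefore had the sign opposite to that of its neighbour Casp1 on day 1 and the same sign on day 7.

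Gsdmd, which encodes the pore-forming gasdermin D, had signals of 2.023 and 1.762 in SWCNT lungs and 1.497 and 1.456 in PF68 lungs on day 7. Its day 1 signals were 1.469 and 1.407 in SWCNT lungs and 2.002 and 2.098 in PF68 lungs. The pattern was that of Casp1, with high signals in the PF68 lungs of day 1 and the SWCNT lungs of day 7. The difference was 0.42 ± 0.13 on day 7 (adjusted p = 0.132) and -0.61 ± 0.13 on day 1 (adjusted p = 0.0845).

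**Figure D2:**
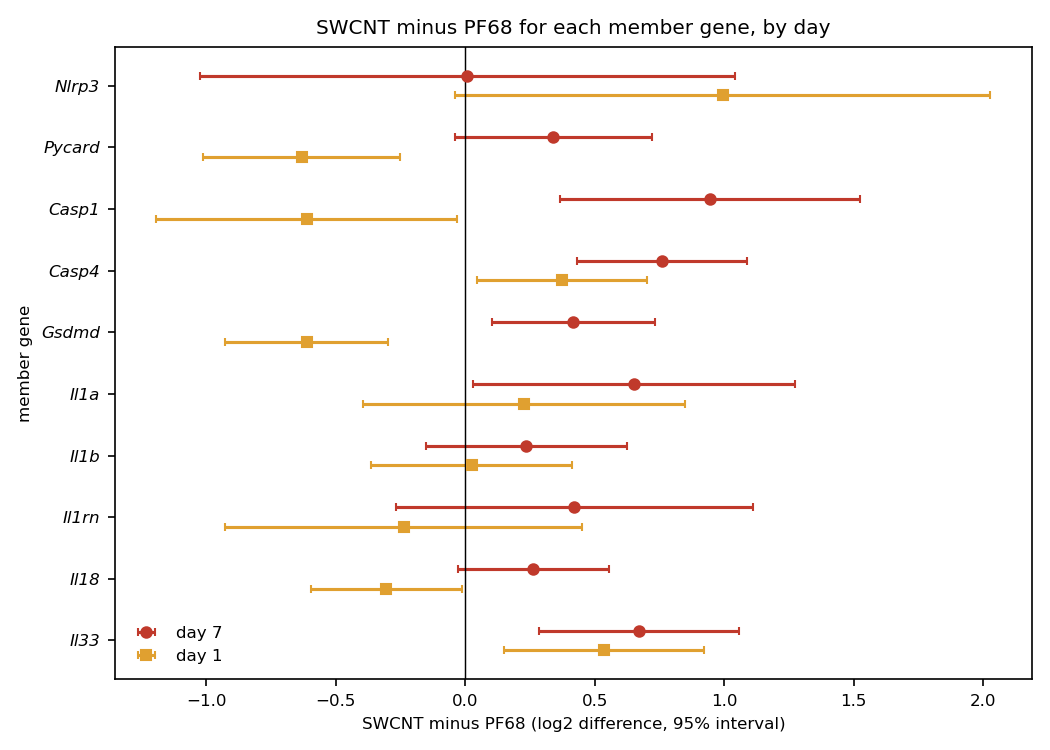
Difference in log2 signal, SWCNT minus PF68 (x axis), for each member gene (y axis) on day 7 and day 1; points are differences of 2-array means and bars are 95% intervals of the limma fit, unadjusted for the number of genes. Every point of day 7 is at or above 0, from 0.01 for Nlrp3 to 0.95 for Casp1, and 5 of the 10 points of day 1 are below 0.

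Among the cytokines, Il1b, the main product of the NLRP3 pathway, had signals of 2.57 and 2.62 in SWCNT lungs and 2.27 and 2.44 in PF68 lungs on day 7. On day 1 it had 2.74 and 2.48 in SWCNT lungs and 2.44 and 2.73 in PF68 lungs. All 8 arrays lay between 2.27 and 2.74, and the groups did not separate except on day 7. The difference was 0.24 ± 0.16 on day 7 (adjusted p = 0.423, interval -0.15 to 0.63) and 0.02 ± 0.16 on day 1 (adjusted p = 0.954, interval -0.37 to 0.41). The day 1 sign changed with 1 array left out, over a range of -0.12 to 0.17.

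Il18, the second cytokine that caspase-1 matures, had signals of 3.43 and 3.49 in SWCNT lungs and 3.22 and 3.17 in PF68 lungs on day 7. In the day 1 lungs it had 2.74 and 2.59 in SWCNT lungs and 2.88 and 3.05 in PF68 lungs. The order of the groups was SWCNT day 7, PF68 day 7, PF68 day 1 and SWCNT day 1, with no overlap between neighbours. The difference between treatments was 0.26 ± 0.12 on day 7 (adjusted p = 0.255) and -0.30 ± 0.12 on day 1 (adjusted p = 0.254).

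Il33, an alarm cytokine of epithelium and stroma that acts on type 2 immune cells, had signals of 4.36 and 4.26 in SWCNT lungs and 3.82 and 3.47 in PF68 lungs on day 7. Signals on day 1 were 3.72 and 3.83 in SWCNT lungs and 3.33 and 3.15 in PF68 lungs. The SWCNT lungs of day 7 stood above all other arrays and the PF68 lungs of day 1 below them. The difference was 0.67 ± 0.16 on day 7, a 1.59-fold higher signal (adjusted p = 0.0844), and 0.53 ± 0.16 on day 1 (adjusted p = 0.160). The difference between these effects, 0.14 ± 0.22, had an adjusted p of 0.770.

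Il1a, the alarm cytokine of the IL-1 type, was dim, at or above the array median on 4 of 8 arrays. It had signals of -0.19 and -0.28 in SWCNT lungs and -0.63 and -1.14 in PF68 lungs on day 7, and -0.33 and -0.73 in SWCNT lungs and -0.98 and -0.53 in PF68 lungs on day 1. The groups overlapped on day 1 and did not on day 7. The difference was 0.65 ± 0.25 on day 7 (adjusted p = 0.199) and 0.23 ± 0.25 on day 1 (adjusted p = 0.695).

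Il1rn encodes the IL-1 receptor antagonist, which occupies the receptor without signalling. Its main probe set had signals of 0.39 and 0.66 in SWCNT lungs and 0.53 and -0.31 in PF68 lungs on day 7, and 0.52 and 0.47 in SWCNT lungs and 0.67 and 0.80 in PF68 lungs on day 1. The day 7 groups overlapped, with 1 PF68 array apart from the other. The difference was 0.42 ± 0.28 on day 7 (adjusted p = 0.420) and -0.24 ± 0.28 on day 1 (adjusted p = 0.715). The 3 probe sets of Il1rn disagreed: the other two gave 1.63 ± 0.47 (adjusted p = 0.285) and 0.30 ± 0.46 (adjusted p = 0.825) on day 7, and -0.29 ± 0.47 (adjusted p = 0.896) and 0.99 ± 0.46 (adjusted p = 0.566) on day 1, in the fit of all probe sets.

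The test of whether the SWCNT effect differed between the days was the difference of the effects, day 7 minus day 1. No member passed in limma, as 2.34% of all genes did, and 4 of 10 had an unadjusted p under 0.05, against 20.8% of all genes. The 4 were those whose signs turned round with no overlap on either day: Casp1 at 1.56 ± 0.33 (adjusted p = 0.0767), Gsdmd at 1.03 ± 0.18 (adjusted p = 0.0519), Pycard at 0.97 ± 0.22 (adjusted p = 0.0836) and Il18 at 0.57 ± 0.17 (adjusted p = 0.141). Il1rn also turned sign, at 0.66 ± 0.40 (adjusted p = 0.402), with arrays that overlapped on day 7. Nlrp3 was the 1 member with a negative value, -0.98 ± 0.59 (adjusted p = 0.403). The member median was 0.50, beside 0.05 for all genes.

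The groups of a treatment were also compared between days. These comparisons share no arrays with each other, but each shares arrays with the treatment comparisons above, so they are the same values set out another way. In SWCNT lungs, 2 of 10 members rose on day 7 relative to day 1, where 9.59% of all genes rose: Pycard by 0.95 ± 0.15 (adjusted p = 0.0156) and Il18 by 0.80 ± 0.12 (adjusted p = 0.0130). Both calls were lost without any 1 of the 4 SWCNT arrays, with an adjusted p of 0.0543 to 0.0885 for Pycard and 0.0526 to 0.0766 for Il18, while both differences stayed at or above 0.72. In PF68 lungs, 2 of 10 members fell on day 7 relative to day 1, where 8.86% of all genes fell: Casp1 fell by 1.10 ± 0.24 (adjusted p = 0.0303) and Gsdmd fell by 0.57 ± 0.13 (adjusted p = 0.0330). Without 1 of the 4 PF68 arrays, the adjusted p was 0.0793 to 0.138 for Casp1 and 0.0824 to 0.152 for Gsdmd. Casp1 also lost its call without either SWCNT array of day 7 (adjusted p = 0.0569), and Gsdmd without either SWCNT array of day 1 (adjusted p = 0.0609). Nlrp3 was 1.23 ± 0.42 higher on day 7 in PF68 lungs (adjusted p = 0.0985), and the 2 groups did not overlap.

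Several measures moved with these groups. The 3′ minus 5′ signal of the beta-actin control probe sets, which grows as RNA is degraded or copied less far, was 2.97 in SWCNT lungs and 3.27 in PF68 lungs on day 7, and 1.34 in SWCNT lungs and 2.02 in PF68 lungs on day 1. Skeletal muscle markers, foreign to lung parenchyma, were higher in SWCNT lungs on day 1 for 6 of 6 genes, with summed linear signals of 3.48 to 4.18 in SWCNT and 3.81 to 4.23 in PF68 lungs on day 7, and 81.1 to 83.4 in SWCNT and 3.40 to 3.61 in PF68 lungs on day 1. Squamous epithelial markers did likewise for 3 of 5 genes, with sums of 1.89 to 3.44 in SWCNT and 2.52 to 4.19 in PF68 lungs on day 7, and 30.3 to 33.7 in SWCNT and 2.14 to 2.41 in PF68 lungs on day 1. With 1 array left out, the day 1 differences of the called muscle and squamous genes stayed at or above 2.86 (Ckm). Except for Acta1 and Tnnt3, each lost its call in some of these fits. In the other 3 groups, 4 or 5 of the 6 muscle markers and 3 or 4 of the 5 squamous markers were below the array median. Beta-actin values were higher on day 7 than on day 1 in both treatments, so the comparisons between days carry this difference. The part of all these measures in the members' differences, between treatments or between days, was not tested.

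Myeloid cells express many of the members. Neutrophil markers summed to 149 to 151 in SWCNT and 311 to 313 in PF68 lungs on day 7, and 341 to 343 in SWCNT and 328 to 333 in PF68 lungs on day 1, and 4 of 8 fell in SWCNT lungs on day 7, with 1 that rose. All 5 of these calls (Mmp8, Ngp, S100a8, S100a9 and Ltf) were lost in each fit with 1 array left out, at adjusted p values from 0.0511 for Ngp to 0.141 for Ltf. Monocyte and macrophage markers summed to 69.1 to 70.7 in SWCNT and 59.6 to 61.9 in PF68 lungs on day 7, and 45.3 to 48.6 in SWCNT and 69.5 to 72.6 in PF68 lungs on day 1. Of those 7 markers, Cd68, a lysosomal protein of macrophages, rose in SWCNT lungs on day 7 by 1.61 ± 0.10 (adjusted p = 0.00927), and Plac8 fell by 1.34 ± 0.13 on day 1 (adjusted p = 0.0106). With 1 array left out, the adjusted p was 0.0484 to 0.120 for Cd68 and 0.0238 to 0.102 for Plac8. Marker by marker, 3 of the 7 lay above 0 on day 7 (median difference -0.016) and 1 of the 7 on day 1 (median -0.34), so the higher sum on day 7 was not shared by most of the list. The part of macrophage transcripts in the members' values was not tested. Alveolar macrophage markers summed to 208 to 210 in SWCNT and 175 to 186 in PF68 lungs on day 7, and 165 to 175 in SWCNT and 158 to 171 in PF68 lungs on day 1, with 1 of 7 (Olr1) higher on day 7 and 1 of 7 (Krt79) lower on day 1. Both calls were lost in each fit with 1 array left out. Of these 7 markers, 6 lay above 0 on day 7 (median difference 0.48) and 4 on day 1 (median 0.037).

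The genes around the members were counted by function. Of 8 measured IL-1 family receptors and decoys, none was called on either day (limma). The other listed gene, Il1rl1, was not among the genes tested. The largest values on day 7 were -1.49 ± 0.32 for the decoy receptor Il1r2 (adjusted p = 0.0712), 1.11 ± 0.35 for Il18bp, which binds and blocks IL-18 (adjusted p = 0.140), and 0.93 ± 0.24 for the signalling receptor Il1r1 (adjusted p = 0.0983). On day 1 the largest was 0.67 ± 0.20 for the IL-18 receptor gene Il18r1 (adjusted p = 0.167). Among other IL-1 family ligands only Il1f10 was measured, at 0.52 ± 0.22 on day 7 (adjusted p = 0.230) and 0.12 ± 0.22 on day 1 (adjusted p = 0.832).

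Of 6 other inflammasome sensors measured, none was called on either day, and Nlrp6 had the largest difference on both, -0.69 ± 0.45 on day 7 (adjusted p = 0.412) and -1.34 ± 0.45 on day 1 (adjusted p = 0.200). Of 8 genes of NLRP3 activation and regulation, Ctsb, the lysosomal protease cathepsin B, rose on day 7 by 0.85 ± 0.11 (adjusted p = 0.0376). On day 1, 2 of the 8 fell: Gbp2, an interferon-induced guanylate-binding protein, fell by 2.19 ± 0.16 (adjusted p = 0.00548) and Panx1, a membrane channel, fell by 0.91 ± 0.14 (adjusted p = 0.0426). With 1 of the 8 arrays left out at a time, the adjusted p of Ctsb was 0.0818 to 0.170, that of Panx1 0.0756 to 0.233, and that of Gbp2 0.0142 to 0.0686. Of 7 cell death genes none was called, and Ripk3, a kinase of necroptosis, had 1.24 ± 0.32 on day 7 (adjusted p = 0.0993) and -0.79 ± 0.32 on day 1 (adjusted p = 0.271).

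Upstream and downstream of the cytokines, 0 of 9 Toll-like receptor and NF-kappaB genes and 0 of 11 MyD88 signalling genes were called on either day. On day 7 the largest differences were 0.95 ± 0.24 for Tlr2 (adjusted p = 0.0939) and -0.85 ± 0.26 for Tab1 (adjusted p = 0.134). On day 1 they were -0.93 ± 0.17 for Tnfaip3, an inhibitor of NF-kappaB (adjusted p = 0.0630), and -0.91 ± 0.21 for Tab3 (adjusted p = 0.106).

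Of 10 measured genes known to be induced by IL-1, 3 were called on each day. On day 7 all 3 rose: Lcn2, an iron-scavenging protein, by 1.81 ± 0.14 (adjusted p = 0.0140), the acute-phase gene Saa3 by 1.78 ± 0.13 (adjusted p = 0.0140) and the neutrophil chemokine Cxcl5 by 1.67 ± 0.27 (adjusted p = 0.0457). On day 1 Saa3 rose by 1.57 ± 0.13 (adjusted p = 0.00771) and Cxcl5 by 1.74 ± 0.27 (adjusted p = 0.0421), while Il6 fell by 0.92 ± 0.15 (adjusted p = 0.0499). Other cytokines induce these genes too. Of 6 measured genes of IL-33 and type 2 responses, 2 rose on day 7, the arginase gene Arg1 by 3.18 ± 0.29 (adjusted p = 0.0191) and Retnla, a product of type 2 macrophages, by 1.03 ± 0.11 (adjusted p = 0.0254). On day 1 Retnla rose by 1.14 ± 0.11 (adjusted p = 0.0136). The other genes of this list, Il4, Il5, Il9, Il13 and Areg, were not among the genes tested. With 1 of the 8 arrays left out at a time, the adjusted p on day 7 was 0.0511 to 0.120 for Lcn2, 0.0484 to 0.120 for Saa3, 0.0631 to 0.180 for Cxcl5, 0.0205 to 0.135 for Arg1 and 0.0691 to 0.149 for Retnla. On day 1 it was 0.0187 to 0.0782 for Saa3, 0.0418 to 0.182 for Cxcl5, 0.0754 to 0.243 for Il6 and 0.0313 to 0.109 for Retnla.

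Of the 10 pathway lists, the interferon-induced genes had the most calls on day 1. On that day 8 of 9 fell in SWCNT lungs relative to PF68 lungs, among them Cxcl10, a lymphocyte chemokine, by 4.36 ± 0.30 (adjusted p = 0.00484) and Ifit1, which binds viral RNA, by 4.14 ± 0.17 (adjusted p = 0.00107), with an adjusted p of 0.0140 to 0.0579 for Cxcl10 and 0.00496 to 0.0218 for Ifit1 when 1 array was left out. On day 7, 1 of 9 fell, Rsad2 by 0.81 ± 0.11 (adjusted p = 0.0392; 0.0768 to 0.169 with 1 array left out), and with the mean of its probe sets in place of the brightest its difference turned to 0.43. Their summed linear signal was 27.9 to 29.6 in SWCNT and 32.2 to 34.3 in PF68 lungs on day 7, and 25.5 to 26.7 in SWCNT and 172 to 173 in PF68 lungs on day 1, so the PF68 lungs of day 1 stood apart from the other 3 groups. In PF68 lungs the day 7 arrays lay below the day 1 arrays without overlap for 4 of 10 members (Casp1, Casp4, Gsdmd and Il1rn), as for 28.6% of all genes. They lay above them for 3 of 10, as for 32.5% of all genes. Casp1 and Casp4 are known to respond to interferons, and their differences were -1.10 ± 0.24 and -0.39 ± 0.13 (adjusted p = 0.0303 and 0.102). Between SWCNT and PF68 lungs on day 1 the differences were -0.61 ± 0.24 for Casp1 (adjusted p = 0.249) and 0.37 ± 0.13 for Casp4 (adjusted p = 0.218). The part of interferon-induced transcription in the members' values was not tested.

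**Figure D3:**
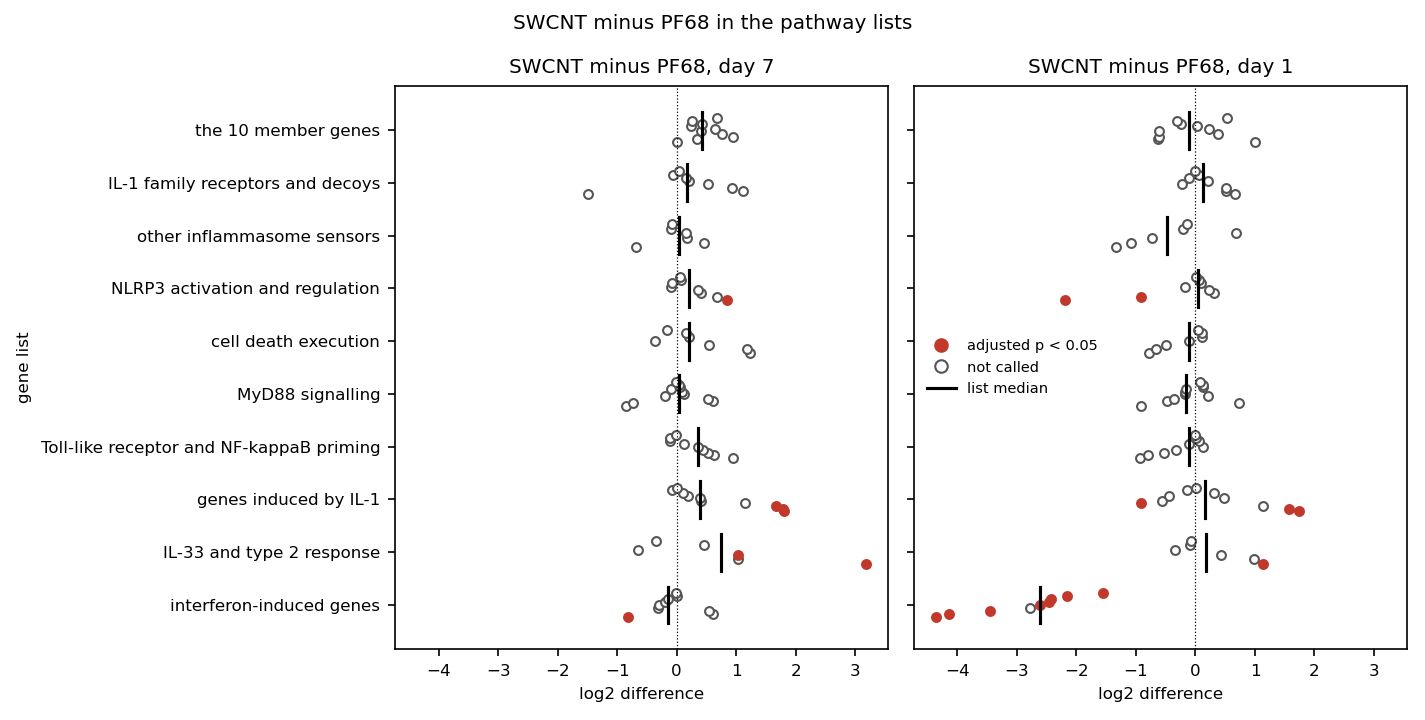
Difference in log2 signal, SWCNT minus PF68 (x axis), of the 10 members and of each measured gene in the pathway lists (y axis) on each day. The list of other IL-1 family ligands is not drawn. Filled points passed an adjusted p of 0.05, open points did not, and the short lines are list medians. On day 1, 8 of 9 interferon-induced genes are filled and lower, and on day 7, 3 of 10 genes induced by IL-1 and 2 of 6 genes of the IL-33 and type 2 list are filled and higher.

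The genes whose patterns over the 8 arrays were nearest to 3 of the members were found by the root mean square difference after centring each gene on its own mean. For Casp1, whose own root mean square about its mean was 0.47, they were Capn5 (0.13), Bub1b (0.16) and Galnt11 (0.17). For Il33, at 0.40, they were Ptpn12 (0.13), Azin1 (0.14) and Ccdc91 (0.14). For Il1b, at 0.15, they were Rpl41 (0.05), Ap1m1 (0.06) and H13 (0.06), all nearly flat like Il1b. These are descriptions of likeness among 13853 other genes over 8 arrays.

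The members' calls depended on how the arrays were scaled and how the spread was modelled. Quantile-normalized arrays carry no absolute level. The 18 hybridization spike probe sets differed between SWCNT and PF68 by -0.53 on day 7 and 0.22 on day 1, so scaling to the spikes raised every day 7 difference by 0.53, lowered every day 1 difference by 0.22, and moved the median of all genes to 0.55 and -0.24. With that scaling 9 of 10 members were higher on day 7, but so were 5813 genes in all, against 80 lower. Where the filter asked for the array median on all 8 arrays, Casp1 (adjusted p = 0.0370), Casp4 (adjusted p = 0.0163) and Il33 (adjusted p = 0.0328) were called higher on day 7, and Pycard (adjusted p = 0.0456) and Gsdmd (adjusted p = 0.0303) lower on day 1. This stricter filter also called more genes in all, 1176 of 9802 on day 7 and 696 on day 1, against 302 and 300 of 13854 as reported. An eBayes fit with a mean-variance trend and robust prior called the same genes on those days, plus Il33 on day 1 (adjusted p = 0.0124). Over all genes that fit called 1617 of 13854 on day 7 and 1254 on day 1. Leaving out any 1 array called no member between SWCNT and PF68 on either day.

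**Figure D4:**
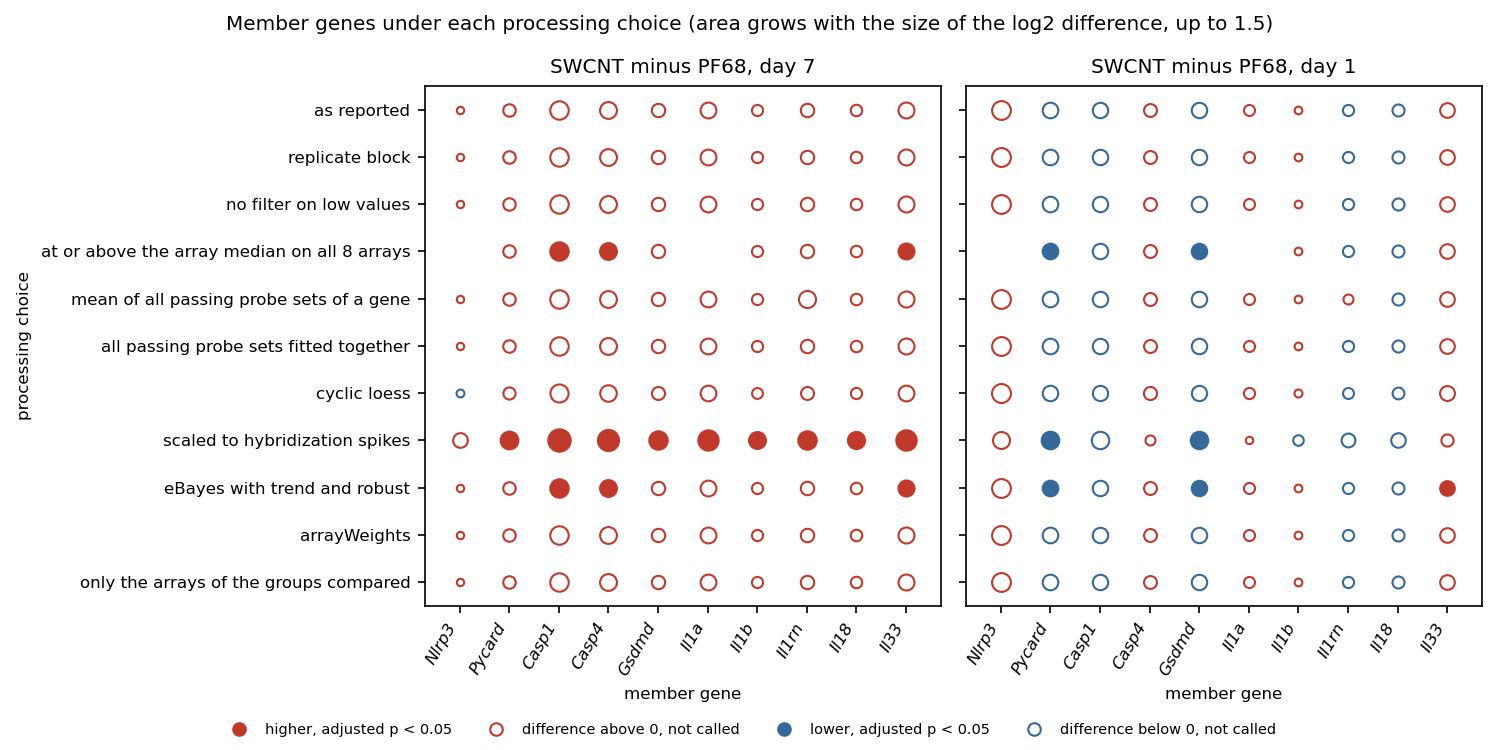
Each member gene (x axis) under each processing choice (y axis) on each day; circle area grows with the size of the log2 difference, filled circles passed an adjusted p of 0.05, and colour gives the sign of SWCNT minus PF68. Casp1, Casp4 and Il33 are filled on day 7 under the stricter filter and under the trended robust fit, and 9 of 10 members are filled on day 7 under scaling to spikes. In that order, these settings called 1176 of 9802, 1617 of 13854 and 5893 of 13854 genes on day 7.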

How the data were processed

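The authors deposited 1 value per probe set and array, read here as log2; the submitters' processing notes name RMA, with log base and offset not given by the sources used here. Another base would scale every difference alike and leave the calls unchanged. Of 45101 probe sets, 64 controls and 8 with missing values were left out, 34939 had 1 symbol in the platform annotation, and 27368 passed the filter.

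Means of the 4 groups were fitted to all 8 arrays with lmFit and eBayes of limma 3.58.1 (R 4.3.3; 4 residual and 1.81 prior degrees of freedom), with Benjamini-Hochberg adjustment over 13854 genes and a threshold of 0.05. The procedure was tested on simulated data. The number of arrays limits the precision, and an exact test of 2 arrays against 2 cannot go below p = 0.333. All members are named, with up to 3 genes of each pathway list by size of difference. The members and lists were chosen with earlier results of these data known. Replicate numbers did not pair the arrays (correlation of deviations -0.00605 to 0.0114). Alternatives covered the filter, probe set choice, scaling, variance model, array weights, replicate block and left-out arrays.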

Additional observations from a re-analysis of the deposited data

Results flagged for a closer look

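The SWCNT effect differed in sign between the days, with SWCNT and PF68 arrays apart on both, for 4 members: below PF68 on day 1 and above it on day 7. The difference of the effects, day 7 minus day 1 on the log2 scale, was 1.56 ± 0.33 for Casp1 (adjusted p = 0.0767), 1.03 ± 0.18 for Gsdmd (adjusted p = 0.0519), 0.97 ± 0.22 for Pycard (adjusted p = 0.0836) and 0.57 ± 0.17 for Il18 (adjusted p = 0.141). None of these passed 0.05 in limma. For Pycard the value is that of the main probe set. Its other, dimmer probe sets gave -2.55 ± 0.63 (adjusted p = 0.285) and 1.26 ± 0.90 (adjusted p = 0.643) in the limma fit of all probe sets.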

How the results depend on the processing

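The number of members called moved with the analysis, as did that of all genes. Between SWCNT and PF68 on day 7, day 1 and in the difference, the stricter filter gave 1176, 696 and 988 calls among 9802 genes. Scaling to spikes gave 5893, 737 and 6127 among 13854 genes, and the trended robust fit 1617, 1254 and 1382. In the same order of settings, 3162, 2820 and 3411 were called between days in SWCNT lungs, and 3327, 5928 and 3568 in PF68 lungs. For SWCNT against PF68 no member was called as reported on day 7 or day 1, or in the difference of the effects. Requiring the array median on all 8 arrays (8 members tested) gave 3, 2 and 3 calls, scaling to spikes 9, 2 and 9, and the trended robust fit 3, 3 and 4; leaving out 1 array gave 0 each time. Between days, the 2 calls in SWCNT lungs became 4 under each of those 3 settings and 0 with the compared arrays alone, and were 0 to 3 with 1 array left out. The 2 calls in PF68 lungs became 6 with spikes, 4 with the trended robust fit, 0 without a filter or with the compared arrays alone, and 0 to 1 with 1 array left out. They became 1 with the replicate block, with the mean of a gene's probe sets, with all probe sets together and with array weights; the block ended the calls of Casp1 (adjusted p = 0.0548) and Gsdmd (adjusted p = 0.0542) and added Nlrp3 (adjusted p = 0.0285), and the array numbers do not pair the samples.

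The sign of some differences turned. Scaling to spikes gave -0.19 for Il1b and -0.10 for Il1f10 on day 1; between days it gave 0.15 for Casp4 and 0.14 for Il1b in SWCNT lungs, and -0.37 for Il18 and -0.19 for Il33 in PF68 lungs. The mean of probe sets gave 0.16 for Il1rn on day 1 and 0.43 for Rsad2 on day 7, and cyclic loess gave -0.033 for Nlrp3 on day 7. With 1 array left out, values ran on day 7 from -0.48 to 0.49 for Nlrp3 and -0.00079 to 0.84 for Il1rn, and on day 1 from -0.12 to 0.17 for Il1b and -0.11 to 0.34 for Il1f10. The difference of the effects ran from -0.040 to 0.31 for Il33. In SWCNT lungs between days they ran from -0.24 to 0.73 for Nlrp3, -0.15 to 0.15 for Casp4, -0.15 to 0.12 for Il1b and -0.10 to 0.17 for Il1rn, and in PF68 lungs from -0.17 to 0.13 for Pycard and -0.38 to 0.13 for Il1a. The settings were only varied, and the cause of these turns was not tested.

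Over all genes, 302 calls on day 7 and 300 on day 1 became 0 to 18 and 30 to 189 with 1 array left out, and 0 to 5893 and 57 to 1254 under other settings. The 324 calls of the difference became 3 to 74 and 30 to 6127. The 2257 calls between days in SWCNT lungs became 91 to 2319 and 7 to 3411, and the 2455 in PF68 lungs 0 to 1841 and 0 to 5928. With spikes the share of higher calls was 98.6% on day 7, 13.7% on day 1, 98.2% in the difference, 78.0% between days in SWCNT lungs and 2.90% in PF68 lungs, beside 64.2%, 43%, 60.5%, 58.9% and 50.0% as reported.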

Other observations

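Between days, genes around the members also moved within a treatment. The beta-actin control signal described above differed between the days as well, in both treatments, and its part was not tested. In SWCNT lungs on day 7 relative to day 1, the sensor genes Naip5 and Naip2 rose by 1.25 ± 0.28 (adjusted p = 0.0355) and 1.01 ± 0.22 (adjusted p = 0.0326), 2 of 6 sensors measured, where 9.59% of all genes rose. Of 8 receptors and decoys, Il1r2 fell by 1.71 ± 0.32 (adjusted p = 0.0222) and Il1rl2, the IL-36 receptor gene, rose by 0.44 ± 0.11 (adjusted p = 0.0435). In this comparison 6.70% of all genes fell and 9.59% rose. In PF68 lungs 2 of the 8 receptors and decoys rose and 2 fell, where 8.86% of all genes rose and 8.86% fell. There Ripk3 fell by 2.20 ± 0.32 (adjusted p = 0.0125) and Cd14, a coreceptor of Toll-like receptors, by 1.15 ± 0.15 (adjusted p = 0.0108), where 8.86% of all genes fell. Of 9 interferon-induced genes, 8 fell in PF68 lungs, while in SWCNT lungs 2 rose and 1 fell. The calls in PF68 lungs, these included, were all lost without PF68 day 1 replicate 2 and with the compared arrays alone, where 0 of 13854 genes were called, and those in SWCNT lungs numbered 91 over all genes without SWCNT day 7 replicate 2 and 7 with the compared arrays alone.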
